A study of Mus musculus with 28 samples.

Results

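A set of 34 genes of osteoblasts, osteocytes and bone mineralization was followed through tibialis anterior (TA) muscle of 28 mice. The members were named by symbol, and all 34 were found among the 55416 gene identifiers of the Dnm2 cohort and the 55359 of the Bin1 cohort. The members were chosen by their known roles with earlier results of these mice in view, and the 4 genes named in the choice were selected on their rise in read counts with tamoxifen. The choice names Tnn, Mmp13, Ibsp and Prss35 as genes that were seen to rise with tamoxifen. These 4 genes are therefore described without a test under tamoxifen, and the other 30 are tested there. Tamoxifen in WT mice is described without a test for all members, since the choice does not say which tamoxifen comparison it used. The choice has no threshold.

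RNA was sequenced from mice of 2 models of centronuclear myopathy on the C57BL/6N strain at 8 weeks of age, with 4 mice in each of 7 groups. The Dnm2 cohort held WT and Dnm2 S619L/+ mice, each on placebo or on tamoxifen, a drug that binds the oestrogen receptor. Dnm2 S619L/+ mice are heterozygous for a point mutation of the gene of dynamin 2, a GTPase that cuts membrane tubules. The Bin1 cohort held WT mice on placebo and Bin1 mck-/- mice on placebo or on tamoxifen, with no WT mice on tamoxifen. Bin1 mck-/- mice lack Bin1, the gene of the membrane-bending protein amphiphysin 2, in skeletal muscle. The deletion is driven by the promoter of muscle creatine kinase, so other cells of the muscle keep the gene.

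Osteoblasts lay down bone by secreting a matrix of type I collagen and acidic phosphoproteins, onto which calcium phosphate is deposited once alkaline phosphatase has removed the inhibitor pyrophosphate. Their differentiation runs through the transcription factors Runx2 and Sp7, and some of the cells are buried in the matrix and become osteocytes, which secrete Sost and Dmp1. Skeletal muscle fibers do not make bone matrix.

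Levels are given in CPM, read counts scaled to 1000000 reads on genes after TMM scaling, and a log2 fold change is a difference of fitted log2 levels. A gene is called where the Benjamini-Hochberg adjusted p of edgeR's quasi-likelihood test, over all genes tested in a cohort, is under 0.05. Reads assigned to genes ran from 15586333 to 109710886 per mouse in the Dnm2 cohort and from 24671835 to 35136327 in the Bin1 cohort, so that members with a few reads are near the limit of detection. Values of a group are listed in the order of its mice, 1 to 4, or 5 to 8 in WT mice of the Bin1 cohort. Bin1 itself had a median of 541 CPM in WT mice of its cohort, 55.5 CPM in Bin1 mck-/- mice on placebo and 39.1 CPM on tamoxifen, which checks the genotype labels of this cohort and not those of treatment. The level of Dnm2 does not check a point mutation. The 10 markers of muscle fibers summed to between 106817 and 232973 CPM in every mouse.

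Promoters are shown for the members of the small integrin-binding glycoprotein cluster, whose genes lie in the order Dmp1, Ibsp, Mepe and Spp1 on chromosome 5, and for Bglap and Mmp13, because these genes include the most abundant members and the classical osteoblast markers. RefSeq promoters of GRCm38.p6 were matched by symbol for 21 of the 34 members, with 26 start sites, and none was found for Dlx3, Sfrp4, Sp7, Tnfrsf11b, Dlx5, Tmem119, Creb3l1, Cdh11, Fkbp10, Dlx6, Smpd3, Bglap2 and Panx3. The 250 bases before the transcription start are printed 5′ to 3′ on the strand of the gene. Capitals mark the core that Runx factors bind, TGTGGT, and a homeobox core, TAATTG, read on either strand.
Bglap, chr3:88384467-88384716, minus strand: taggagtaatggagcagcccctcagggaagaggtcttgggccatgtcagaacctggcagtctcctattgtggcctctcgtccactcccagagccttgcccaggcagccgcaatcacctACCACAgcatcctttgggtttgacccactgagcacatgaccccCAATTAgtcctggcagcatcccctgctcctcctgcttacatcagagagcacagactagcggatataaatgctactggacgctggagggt
Ibsp, chr5:104299037-104299286, plus strand: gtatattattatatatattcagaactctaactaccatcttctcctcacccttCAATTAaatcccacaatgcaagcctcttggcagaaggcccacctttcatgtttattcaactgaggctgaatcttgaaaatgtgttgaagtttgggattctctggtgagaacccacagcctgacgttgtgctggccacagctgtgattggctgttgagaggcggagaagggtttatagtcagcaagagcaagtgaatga
Spp1, chr5:104434861-104435110, plus strand: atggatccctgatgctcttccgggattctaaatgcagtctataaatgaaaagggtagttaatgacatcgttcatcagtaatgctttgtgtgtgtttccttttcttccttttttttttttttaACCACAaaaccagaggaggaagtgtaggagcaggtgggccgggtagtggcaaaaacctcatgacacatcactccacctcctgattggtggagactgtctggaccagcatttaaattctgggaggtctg
Dmp1, chr5:104202367-104202616, plus strand: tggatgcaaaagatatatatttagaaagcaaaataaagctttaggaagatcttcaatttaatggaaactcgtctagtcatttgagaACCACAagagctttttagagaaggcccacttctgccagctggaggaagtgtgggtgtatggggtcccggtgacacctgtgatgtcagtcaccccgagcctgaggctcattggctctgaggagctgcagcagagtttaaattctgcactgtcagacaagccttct
Mepe, chr5:104325079-104325328, plus strand: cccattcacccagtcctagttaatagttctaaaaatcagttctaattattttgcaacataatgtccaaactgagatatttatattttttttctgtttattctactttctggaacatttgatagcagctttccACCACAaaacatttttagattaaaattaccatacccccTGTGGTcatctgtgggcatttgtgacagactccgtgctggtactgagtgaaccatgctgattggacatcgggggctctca
Mmp13, chr9:7272264-7272513, plus strand: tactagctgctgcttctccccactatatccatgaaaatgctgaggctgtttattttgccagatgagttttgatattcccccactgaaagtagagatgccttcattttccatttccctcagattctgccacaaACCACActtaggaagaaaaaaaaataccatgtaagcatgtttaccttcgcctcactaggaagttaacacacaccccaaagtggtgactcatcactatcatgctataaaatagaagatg

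The promoters of Bglap, Dmp1, Mepe, Spp1 and Mmp13 hold the Runx core, at 132, 164, 118 and 80, 128, and 118 bases before the start, counted from the start to the first base of the match. That of Ibsp holds the homeobox core at 198 bases and no Runx core in this window, and that of Bglap holds it at 89 bases. Over the members, TGTGGT was found in 7 of 26 promoters, against 14.0% of all 32851 RefSeq promoters of the same length. TAATTG was found in 3 of 26, against 7.17%, and TATAAA in 9 of 26, against 12.4%. An AP-1 site, TGANTCA, was found only in the promoter of Mmp13 among the 26, at 35 bases, against 6.75% of all. The full oestrogen response element, GGTCA and TGACC with 3 bases between them, was in none of the 26 and in 0.0639% of all promoters. Matches were counted on both strands, and no 2 matches of different motifs overlapped. A match of letters is a description and not a site shown to be bound.

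**Figure D1:**
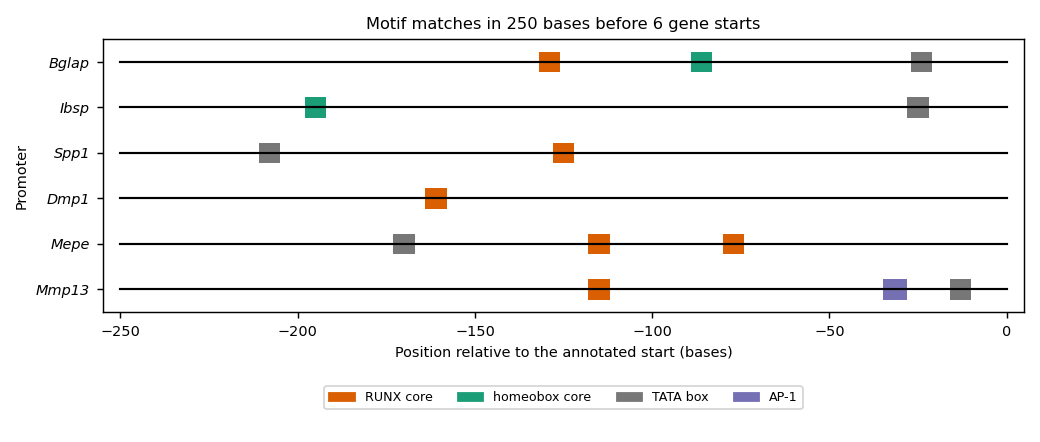
Matches of 4 motifs in the 250 bases before the transcription start of 6 members, by distance from the start in bases. The Runx core is drawn in 5 of the 6 promoters, with 2 matches for Mepe and none for Ibsp.

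In the muscle of mice on placebo, most members were barely detected. The 34 genes together came to between 70.3 and 138 CPM in each of the 16 placebo mice, where Alpl had a mean of 38.6 ± 12.7 (SD, n = 4) CPM in WT mice of the Dnm2 cohort, with Fam20c at 12.0 ± 3.37 (SD, n = 4) CPM. In Dnm2 S619L/+ mice on placebo Fam20c had a mean of 18.5 ± 3.38 (SD, n = 4) CPM and Alpl of 13.0 ± 3.47 (SD, n = 4) CPM. The osteoblast and osteocyte genes Sp7, Bglap, Bglap2, Dlx5, Mepe and Sost each lay at or under 0.179 CPM in every placebo mouse. Other such genes were read there. Means in WT and Dnm2 S619L/+ mice on placebo were 0.238 and 0.473 CPM for Dmp1, 0.714 and 1.15 CPM for Phex, and 2.18 and 4.38 CPM for Spp1. The set is therefore named for what its genes do in bone, and part of its markers were at or near 0 in placebo muscle.

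Under tamoxifen the set lay many times higher in most but not all mice. The 34 genes summed to 3872, 4483, 1907 and 2316 CPM in the 4 WT mice on tamoxifen. They summed to 1375, 2795, 3349 and 143 CPM in Dnm2 S619L/+ mice 1 to 4 on tamoxifen. In Bin1 mck-/- mice 1 to 4 on tamoxifen the sums were 88.4, 1259, 86.3 and 56.2 CPM. All 4 WT mice, 3 of the Dnm2 S619L/+ mice and 1 of the Bin1 mck-/- mice thus lay at or above 1259 CPM, Dnm2 S619L/+ mouse 4 lay just above the placebo mice, and the other 3 Bin1 mck-/- mice lay below all placebo mice of their cohort. Without the 4 genes named by the choice the sums were 757 to 1821 CPM in WT mice on tamoxifen and 116 to 1486 CPM in Dnm2 S619L/+ mice on tamoxifen, against 69.7 to 117 and 86.0 to 113 CPM on placebo. In Bin1 mck-/- mice 1 to 4 on tamoxifen they were then 86.0, 579, 86.2 and 56.2 CPM, against 106 to 138 CPM on placebo. In bulk muscle, more cells of a type and more RNA per cell cannot be told apart.

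**Figure D2:**
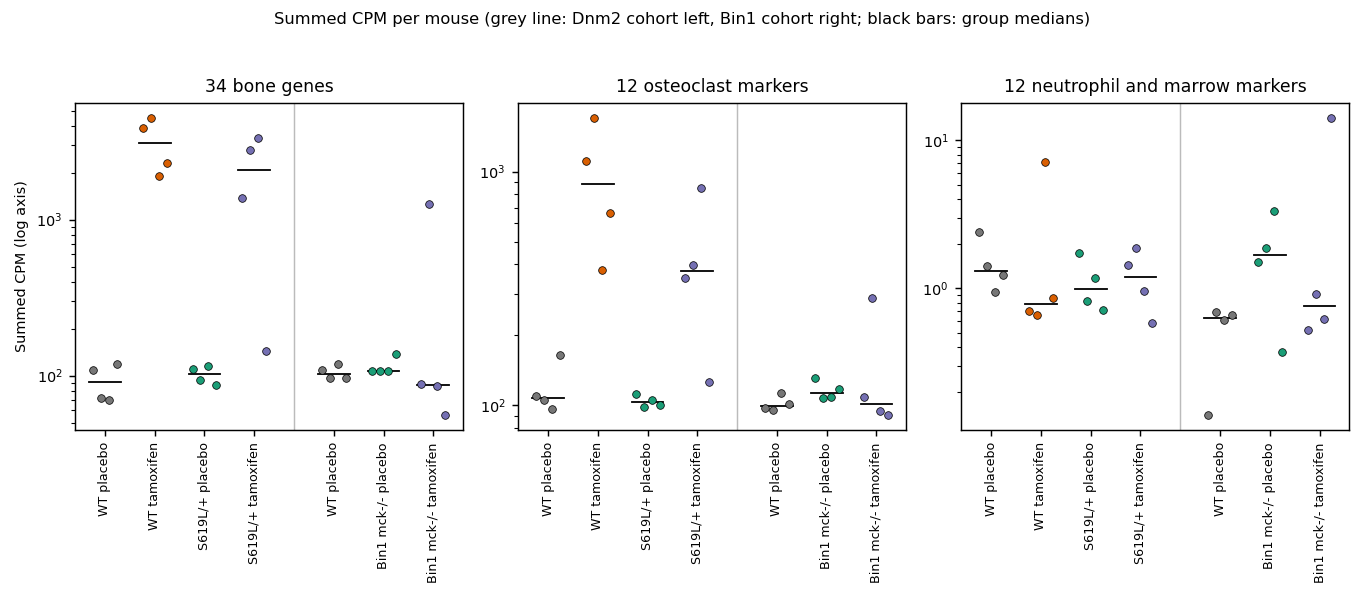
Summed CPM, on a log axis, of the 34 members, of 12 osteoclast markers and of 12 neutrophil and marrow markers in each of the 28 mice, by group. The members and the osteoclast markers are high in the same mice on tamoxifen, while the neutrophil and marrow markers stay at or under 14.2 CPM.

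The same mice stood out across members. Counted mouse by mouse, 28, 29, 25 and 29 of the 34 members lay above all 4 placebo mice of the same genotype in WT mice 1 to 4 on tamoxifen, where 31.6% to 33.0% of all genes tested did. In Dnm2 S619L/+ mice 1 to 4 on tamoxifen the counts were 24, 25, 25 and 15, beside 21.9%, 25%, 25% and 18.4% of all genes. In Bin1 mck-/- mice 1 to 4 they were 7, 23, 4 and 2, beside 23.0%, 22.7%, 28.8% and 31.7%. All these counts include the 4 genes named by the choice, which were selected for rising with tamoxifen. They also include members that did not pass the filter on low counts, whereas the shares cover only genes that did. Dnm2 S619L/+ mouse 4, though low in sum, had 15 members above all its placebo mice, among them Sp7, Dlx5, Dlx6, Bglap, Bglap2 and Dmp1. The 4 genes named by the choice are also among these 15.

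**Figure D3:**
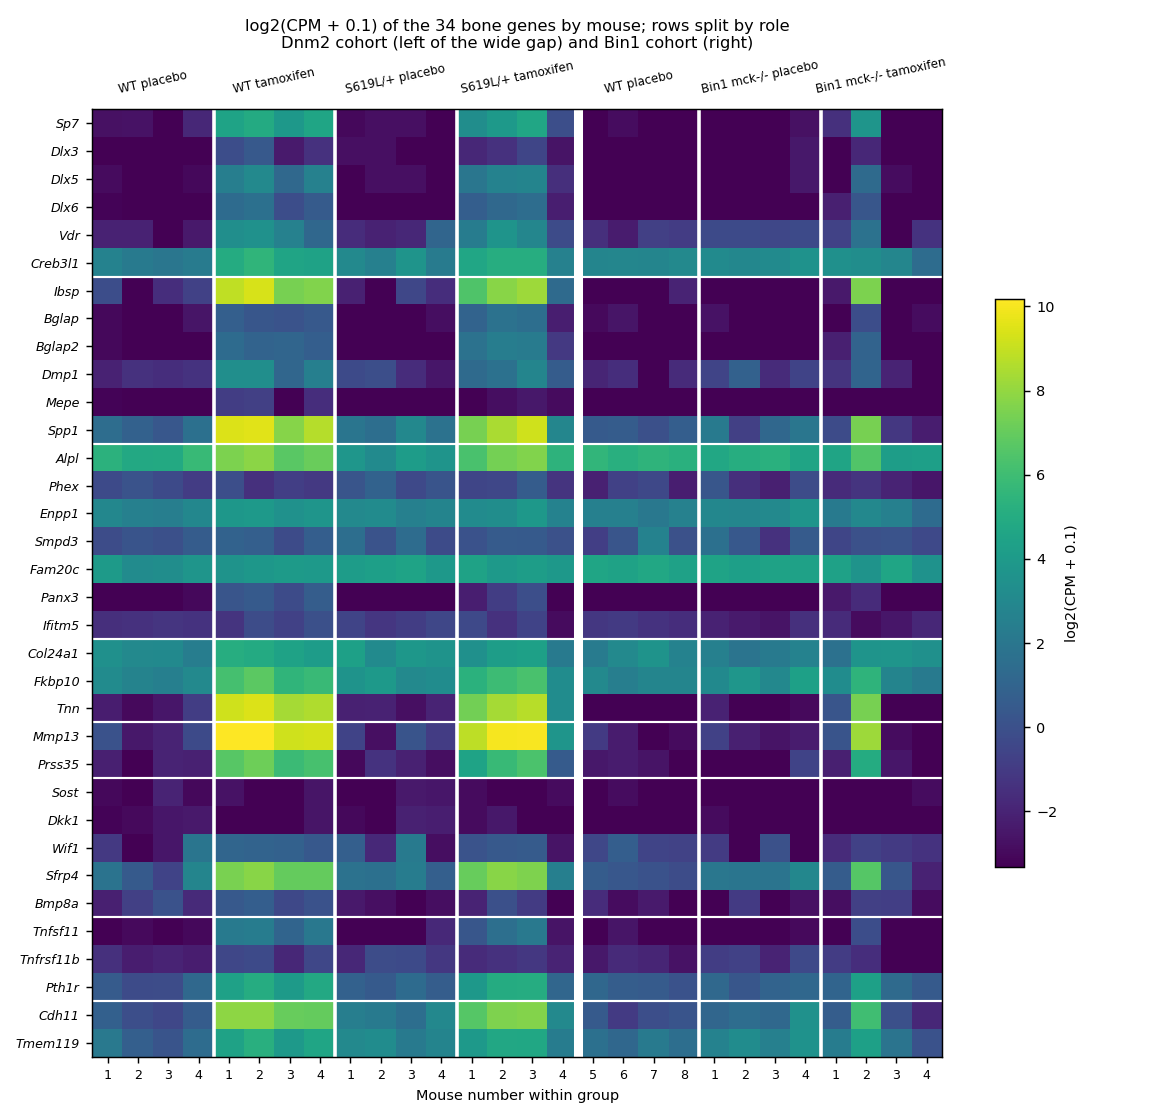
Level of each of the 34 members in each of the 28 mice as log2(CPM + 0.1), with members ordered by role and mice by group. The bright columns, of high levels, are WT mice 1 to 4, Dnm2 S619L/+ mice 1 to 3 and Bin1 mck-/- mouse 2 on tamoxifen. The rows of Sost, Dkk1 and Mepe stay dark, near 0 CPM, in all groups.

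For tamoxifen against placebo in Dnm2 S619L/+ mice, 16 of the 30 members open to a test rose, 10 did not pass the threshold, none fell, and 4 (Dlx3, Mepe, Sost and Dkk1) had too few reads to be tested. Over all 15439 genes tested, 8.27% were called, 5.22% higher and 3.05% lower. Of the 16, only Creb3l1, Spp1, Alpl, Fkbp10, Sfrp4, Pth1r and Cdh11 would have passed the filter on low counts in the placebo mice alone, where 13 of the 30 members did. The other 9 passed through the tamoxifen mice, so their being higher is partly fixed by the filter. Dnm2 S619L/+ mouse 4 on tamoxifen overlapped the placebo mice for several genes. In 10 of the 30 members all 4 tamoxifen mice lay above all 4 placebo mice, beside 4.02% of all genes tested, and none lay below them, beside 6.37%. Of these 10, only Alpl, Sfrp4 and Cdh11 passed the filter on the placebo mice alone. Dlx3 did not pass it, and the rest passed through the tamoxifen mice, so that their lying higher is partly fixed by the filter. With edgeR fitted to these 2 groups alone, whose spread is that of these 8 mice, only Sp7 was called (adjusted p = 0.0489), and 30 of 14310 genes in all, or 0.21%. The 10 called members that could be tested in that fit had adjusted p from 0.0489 to 0.141. Leaving out 1 mouse of the cohort at a time gave 11 to 19 calls, with 11 without tamoxifen mouse 3 and 19 without tamoxifen mouse 4. Over all genes 2.35% were called without tamoxifen mouse 3 and 16.4% without tamoxifen mouse 4.

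**Figure D4:**
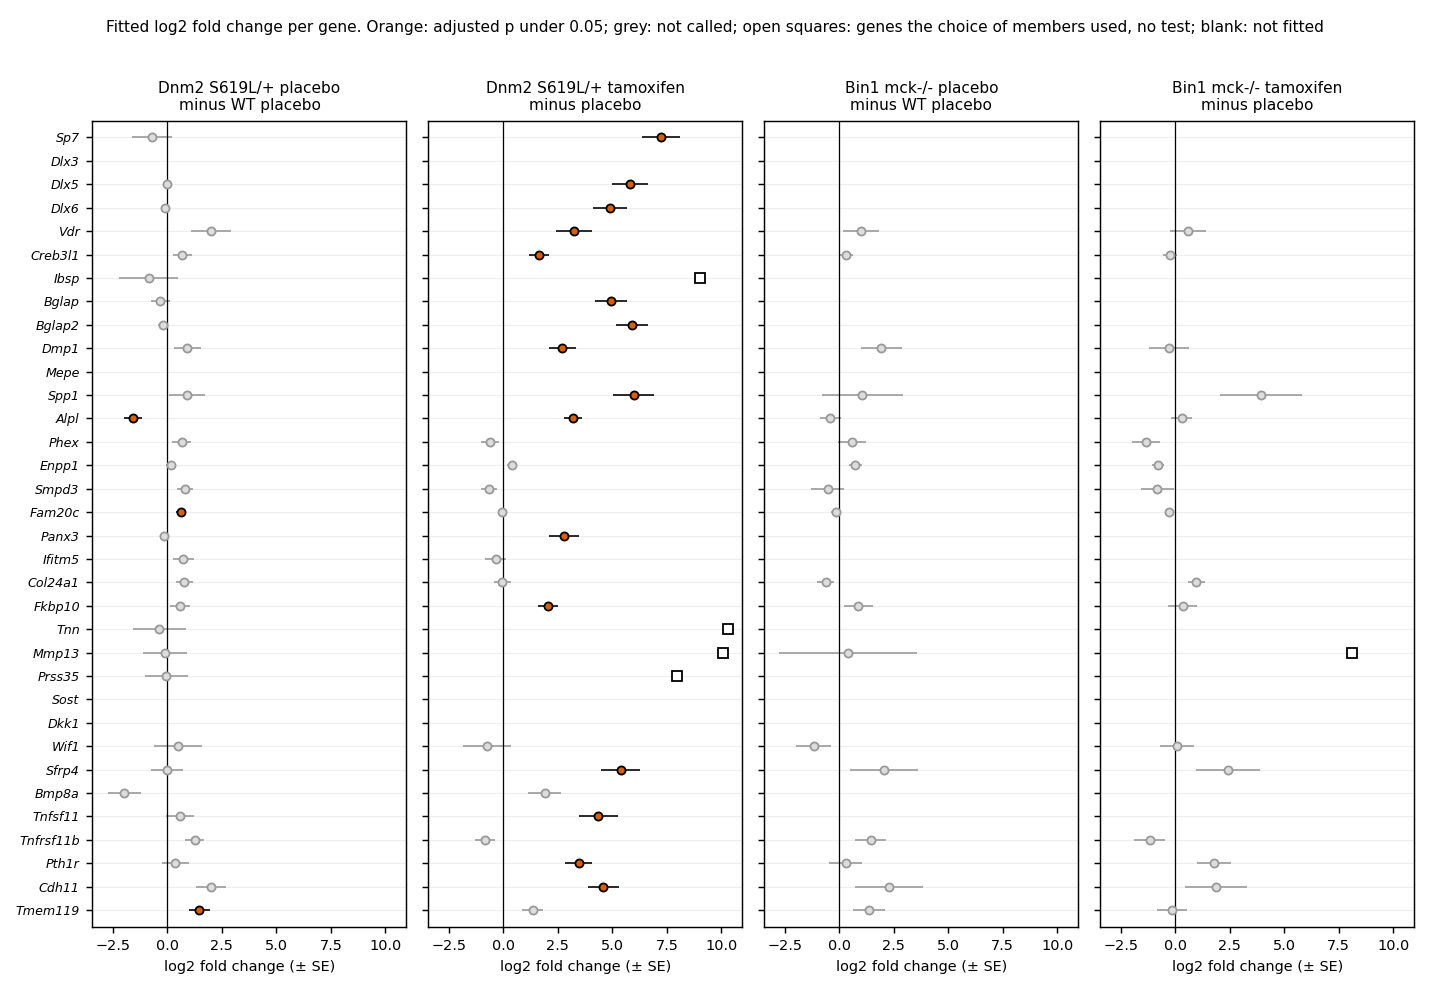
Log2 fold change with its SE for each member in the 4 tested comparisons, with called members in orange. Open squares are the 4 genes that the choice names under tamoxifen, shown without a test, and called members lie to the right of 0 in the tamoxifen comparison of Dnm2 S619L/+ mice.

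Of the 6 transcription factors, 5 could be tested in Dnm2 S619L/+ mice and were called higher with tamoxifen. Of these, Sp7, Dlx5, Dlx6 and Vdr passed the filter on low counts only through the tamoxifen mice, so their direction was partly fixed by it, and only Creb3l1 passed on the placebo mice alone. Sp7 (osterix), without which osteoblasts do not form, lay at 0.0225, 0.0480, 0.0453 and 0 CPM in Dnm2 S619L/+ mice 1 to 4 on placebo and at 9.57, 15.3, 25.3 and 0.864 CPM on tamoxifen. The WT mice had 0.0507, 0.0566, 0 and 0.179 CPM on placebo and 22.4, 30.0, 14.5 and 24.5 CPM on tamoxifen. Every tamoxifen mouse of either genotype lay above every placebo mouse, with Dnm2 S619L/+ mouse 4 the lowest of the 8. Sp7 rose with tamoxifen in Dnm2 S619L/+ mice by a log2 fold change of 7.23 (SE 0.89, adjusted p = 0.000857). Because the placebo group held only 3 reads of Sp7, the ratio of read rates, 442 (151 to 2146) with its 95% counting interval, describes the size better than the fitted value. Intervals and floors of this kind cover counting error only.

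The homeobox genes Dlx5 and Dlx6, neighbouring genes that act in skeletal development, moved together. Dlx5 lay at 0, 0.0480, 0.0453 and 0 CPM on placebo and at 3.89, 6.14, 6.78 and 0.247 CPM on tamoxifen in Dnm2 S619L/+ mice, and at 5.37, 8.22, 2.26 and 6.01 CPM in WT mice on tamoxifen. Its log2 fold change in Dnm2 S619L/+ mice was 5.81 (SE 0.83, adjusted p = 0.0022), with a ratio of read rates of 224 (61.7 to 1856). Dlx6 had no read in the placebo group and 1.56, 2.23, 2.77 and 0.123 CPM on tamoxifen, at least 58.7-fold higher against the floor of 3 reads over the group, with a log2 fold change of 4.89 (SE 0.78, adjusted p = 0.00456). For both genes the groups did not overlap, and mouse 4 was again the lowest on tamoxifen. Dlx3, a further homeobox gene, was not tested, with 3 reads on placebo and 30 on tamoxifen, a ratio of 9.79 (3.04 to 50.1).

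Vdr, the receptor of vitamin D, lay at 0.225, 0.144, 0.181 and 1.98 CPM on placebo and at 5.06, 12.7, 7.14 and 0.741 CPM on tamoxifen in Dnm2 S619L/+ mice. Placebo mouse 4, at 1.98 CPM, lay above tamoxifen mouse 4, so the groups overlapped. Vdr rose by 3.23 (SE 0.83, adjusted p = 0.0289). The call was lost without placebo mouse 1, 2 or 3 or without tamoxifen mouse 2 or 3, with adjusted p from 0.0633 to 0.108. Creb3l1 (OASIS), a membrane-bound factor that drives the type I collagen gene in osteoblasts, lay at 8.09, 5.81, 12.7 and 4.83 CPM on placebo and at 25, 33.5, 34.3 and 5.96 CPM on tamoxifen, with mouse 4 within the placebo range. It rose by 1.64 (SE 0.44, adjusted p = 0.033), a call lost without placebo mouse 1, 2 or 4 or tamoxifen mouse 1, 2 or 3, with adjusted p from 0.0593 to 0.113.

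**Figure D5:**
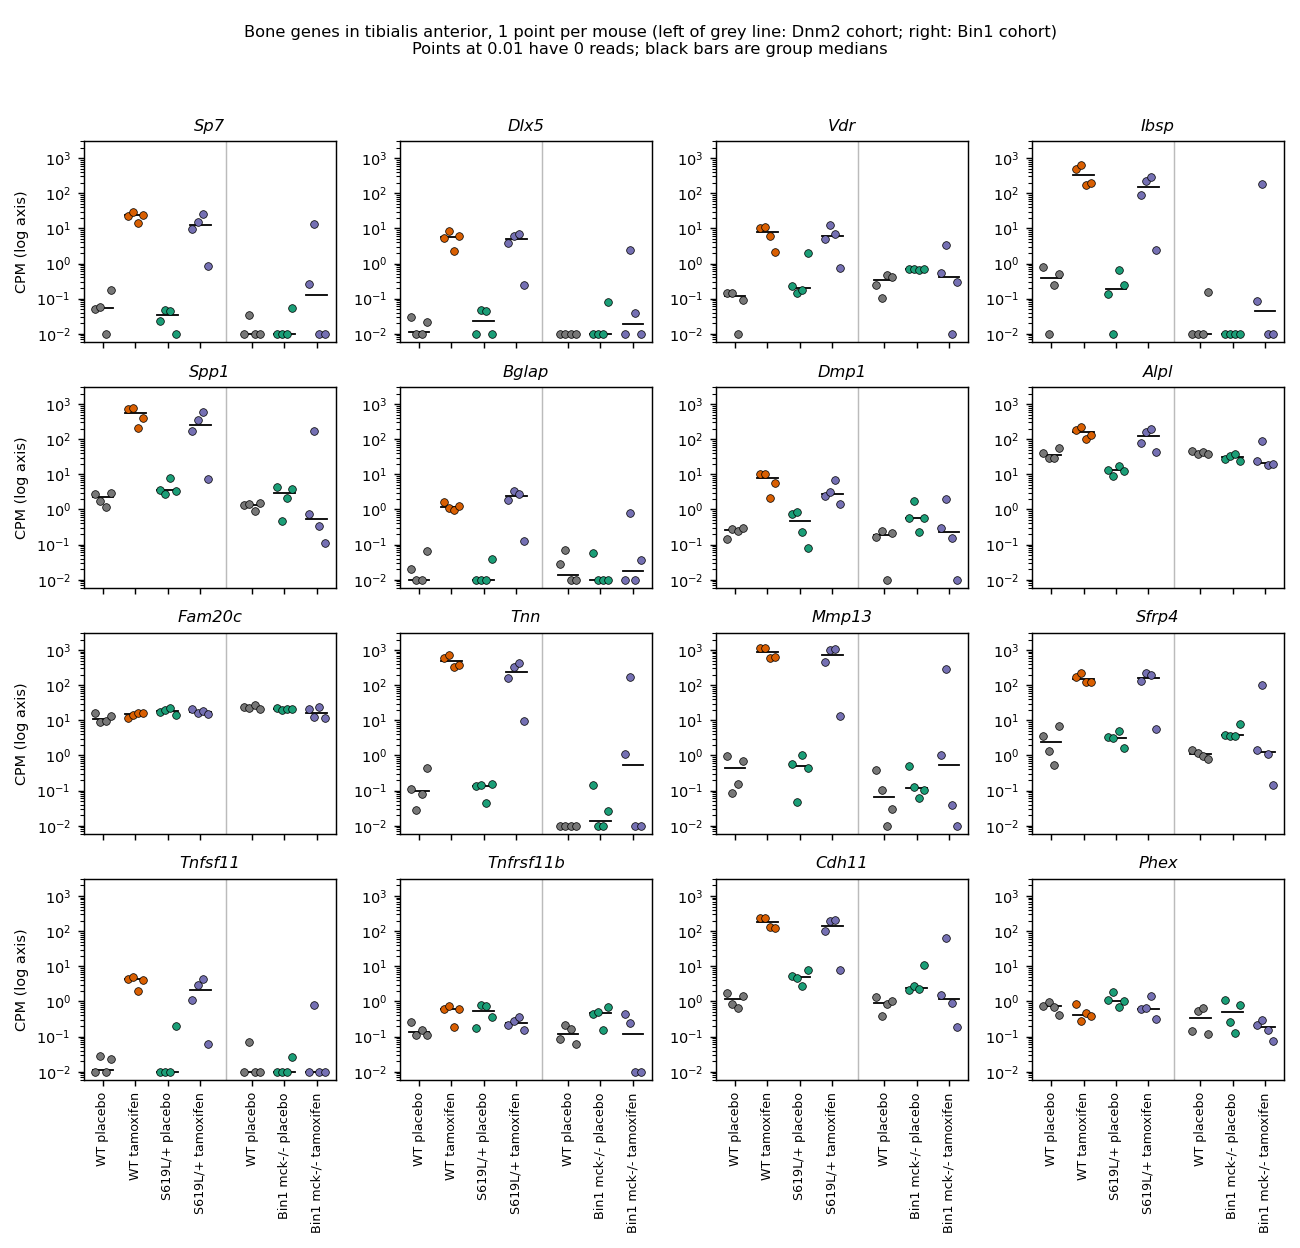
CPM of 16 members in each mouse on a log axis, by group, with bars at the group medians and mice without a read drawn at 0.01 CPM. In WT mice on tamoxifen all 4 points lie together at the top, while in Dnm2 S619L/+ mice on tamoxifen mouse 4 lies apart below the other 3, and in Bin1 mck-/- mice on tamoxifen mouse 2 lies apart above.

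Among the mineral-binding matrix proteins, Ibsp and Spp1 reached the level of abundant genes. Ibsp (bone sialoprotein), which seeds hydroxyapatite, lay at 0.821, 0, 0.237 and 0.514 CPM in WT mice on placebo and at 475, 652, 172 and 200.4 CPM on tamoxifen. In Dnm2 S619L/+ mice it lay at 0.135, 0, 0.634 and 0.237 CPM on placebo and at 87.1, 222, 294 and 2.41 CPM on tamoxifen. Mice 1 to 3 were at or above 87.1 CPM and mouse 4 was at 2.41 CPM, still above all placebo mice. The fitted log2 fold changes, given without a test, were 9.45 in WT and 9.0 in Dnm2 S619L/+ mice.

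Spp1 (osteopontin), a phosphoprotein that binds mineral and integrins and is also made by macrophages, lay at 705, 771, 212 and 414 CPM in WT mice on tamoxifen and at 2.76, 1.73, 1.19 and 3.04 CPM on placebo. Dnm2 S619L/+ mice had 3.67, 2.83, 7.74 and 3.28 CPM on placebo and 168, 349, 595 and 7.25 CPM on tamoxifen. Mouse 4, at 7.25 CPM, was within the placebo range and the other 3 tamoxifen mice were far above it. Spp1 rose in Dnm2 S619L/+ mice by 5.98 (SE 0.94, adjusted p = 0.00308).

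The osteocalcin genes Bglap and Bglap2, which lie side by side on chromosome 3 and encode near-identical proteins of mature osteoblasts, stayed low in absolute terms. Bglap lay at 1.87, 3.31, 2.85 and 0.123 CPM in Dnm2 S619L/+ mice and at 1.63, 1.14, 0.989 and 1.28 CPM in WT mice on tamoxifen, with 1 and 5 reads in all of the corresponding placebo mice. Bglap2 lay at 3.25, 5.14, 4.85 and 0.370 and at 2.51, 1.89, 2.02 and 1.55 CPM. No tamoxifen mouse overlapped a placebo mouse for either gene. The log2 fold change in Dnm2 S619L/+ mice was 4.95 (SE 0.73, adjusted p = 0.00226) for Bglap, with a ratio of read rates of 214 (38.1 to 8503). It was 5.89 (SE 0.73, adjusted p = 0.00172) for Bglap2, which had no read on placebo and was at least 120.0-fold higher against the floor. How reads were divided between these copies is uncertain, and their sum is safer than either value.

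Dmp1, a matrix phosphoprotein of osteocytes, lay at 0.721, 0.864, 0.226 and 0.0792 CPM on placebo and at 2.45, 3.15, 6.90 and 1.45 CPM on tamoxifen in Dnm2 S619L/+ mice, with no overlap and here with mouse 4 close to mouse 1. It rose by 2.71 (SE 0.61, adjusted p = 0.0161), but not without tamoxifen mouse 3 (adjusted p = 0.0656). In WT mice it lay at 0.142, 0.283, 0.237 and 0.290 CPM on placebo and at 10.2, 10.0, 2.12 and 5.63 CPM on tamoxifen. Mepe, a further phosphoprotein of osteocytes between Ibsp and Spp1 on the chromosome, had 45 reads in WT mice on tamoxifen, at 0.442, 0.480, 0 and 0.242 CPM, and 4 reads in Dnm2 S619L/+ mice on tamoxifen. Dspp, the dentin gene beside Dmp1, had no read in any of the 28 mice. The flanking genes Sparcl1 and Pkd2 were expressed throughout, at medians of 355 and 27.9 CPM in WT mice on placebo and of 264 and 58.2 CPM in WT mice on tamoxifen. Sparcl1 thus lay above Ibsp and Spp1 in WT mice on placebo.

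Of the 7 genes of mineralization enzymes and channels, 2 rose with tamoxifen in Dnm2 S619L/+ mice and 5 did not pass the threshold. Alpl, the alkaline phosphatase that removes pyrophosphate, lay at 13.6, 8.83, 17.2 and 12.4 CPM on placebo and at 78.1, 162, 198 and 41.9 CPM on tamoxifen. All 4 tamoxifen mice, mouse 4 included, lay above the placebo mice. Alpl rose by 3.19 (SE 0.43, adjusted p = 0.00159), and it remained called without any 1 of the 16 mice, with adjusted p at most 0.0111. In the WT mice Alpl lay at 41.0, 28.4, 29.3 and 55.5 CPM on placebo and at 185, 229.8, 104 and 134 CPM on tamoxifen.

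Panx3, a channel of the pannexin family in osteoblasts and chondrocytes, had no read in the Dnm2 S619L/+ placebo group and 0.123, 0.438, 0.842 and 0 CPM on tamoxifen, with mouse 4 again without a read. It was at least 11.7-fold higher, with 2.77 (SE 0.69, adjusted p = 0.0302), and the call was lost without placebo mouse 1, 2 or 4, tamoxifen mouse 2 or 3 or WT placebo mouse 4, with adjusted p from 0.0553 to 0.0904. Enpp1, which makes pyrophosphate, lay at 8.18, 9.17, 5.75 and 6.65 CPM on placebo and at 9.08, 9.81, 14.6 and 6.17 CPM on tamoxifen in Dnm2 S619L/+ mice, and the groups overlapped. In WT mice Enpp1 lay at 7.40, 5.83, 5.30 and 7.51 CPM on placebo and at 14.0, 15.3, 11.3 and 12.9 CPM on tamoxifen, without overlap.

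The other enzymes did not follow this pattern. Phex, an endopeptidase of osteocytes, lay between 0.309 and 1.40 CPM in Dnm2 S619L/+ mice on tamoxifen and between 0.679 and 1.82 CPM on placebo. Smpd3, a neutral sphingomyelinase of bone and cartilage, lay between 0.926 and 1.40 CPM and between 0.752 and 2.79 CPM. Fam20c, the kinase that phosphorylates secreted matrix proteins, lay between 14.8 and 21.7 CPM on tamoxifen and between 14.4 and 22.5 CPM on placebo. Ifitm5, a membrane protein of mineralizing osteoblasts, lay at or under 0.675 CPM in every mouse of both groups. The adjusted p of these 4 genes in edgeR was 0.393, 0.294, 0.869 and 0.685.

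In the group of collagen, collagen folding and other matrix, Fkbp10, a chaperone of procollagen in the endoplasmic reticulum, lay at 12.3, 15.2, 7.97 and 9.34 CPM on placebo and at 38.9, 61.5, 79.7 and 9.54 CPM on tamoxifen in Dnm2 S619L/+ mice. Mouse 4 on tamoxifen lay within the placebo range and the other 3 above it. Fkbp10 rose by 2.07 (SE 0.46, adjusted p = 0.0158), and the call was lost without tamoxifen mouse 2 or 3 (adjusted p = 0.0591 and 0.0675). Col24a1, a fibrillar collagen of bone, lay at 20.6, 8.83, 14.3 and 12.0 CPM on placebo and at 11, 18.5, 20.6 and 4.41 CPM on tamoxifen, with overlapping groups and an adjusted p of 0.965. In WT mice Col24a1 lay at 10.9, 8.23, 8.38 and 5.12 CPM on placebo and at 33.8, 30.3, 21.7 and 17.8 CPM on tamoxifen, without overlap.

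Tnn, which encodes tenascin-N, a glycoprotein of periosteum and other collagenous sheaths, was almost unread in placebo muscle, at 0.112, 0.0283, 0.0791 and 0.447 CPM in WT and 0.135, 0.144, 0.0453 and 0.158 CPM in Dnm2 S619L/+ mice. On tamoxifen it lay at 592, 705, 332 and 379 CPM in WT mice and at 158, 328, 424 and 9.48 CPM in Dnm2 S619L/+ mice. The fitted log2 fold changes, without a test, were 11.06 and 10.31. Mouse 4 of the Dnm2 S619L/+ group was the lowest tamoxifen mouse and still lay above all 8 placebo mice.

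Both extracellular proteases of the set were among the genes named by the choice. Mmp13, the collagenase of hypertrophic cartilage and osteoblasts, lay at 0.953, 0.0849, 0.158 and 0.715 CPM on placebo and at 1122, 1159.7, 588 and 628 CPM on tamoxifen in WT mice. Dnm2 S619L/+ mice had 0.564, 0.0480, 1.04 and 0.435 CPM on placebo and 460.1, 1016, 1064 and 13.1 CPM on tamoxifen. The log2 fold changes were 10.42 in WT and 10.09 in Dnm2 S619L/+ mice. Prss35, a secreted protein of the serine protease family, lay at 103, 145, 58.0 and 76.2 CPM in WT and 22.5, 54.0, 81.3 and 1.39 CPM in Dnm2 S619L/+ mice on tamoxifen, and at or under 0.288 CPM in all 8 placebo mice. Per kilobase of exon, the mean level in WT mice on tamoxifen was highest for Mmp13 (327 CPM per kb), followed by Spp1 (319), Ibsp (181) and Tnn (86.3). The first 2 of these did not differ beyond the spread of their mice, which ran from 220.0 to 434 and from 129 to 468 CPM per kb.

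The Wnt and BMP signals were divided. Sfrp4, a secreted Wnt antagonist of bone, lay at 3.31, 3.07, 5.07 and 1.62 CPM on placebo and at 133, 222, 193 and 5.49 CPM on tamoxifen in Dnm2 S619L/+ mice, with mouse 4 just above the highest placebo mouse. It rose by 5.38 (SE 0.88, adjusted p = 0.00346). In WT mice it lay at 3.49, 1.30, 0.553 and 6.95 CPM on placebo and at 176, 217, 126 and 126 CPM on tamoxifen.

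The other Wnt antagonists did not follow it. Sost (sclerostin), the Wnt antagonist of osteocytes, and Dkk1 lay at or under 0.158 CPM in all 16 mice of the cohort, with 5 and 2 reads in WT mice on tamoxifen and 2 and 3 reads in Dnm2 S619L/+ mice on tamoxifen. At this depth a difference was not detectable. Wif1 lay at 1.62, 0.192, 4.48 and 0.0396 CPM on placebo and at 1.01, 1.28, 1.36 and 0.0617 CPM on tamoxifen, with an adjusted p of 0.721, and mice of a group differed more than the groups. Bmp8a, a bone morphogenetic protein, lay at 0.0902, 0.0480, 0 and 0.0396 CPM on placebo and at 0.153, 0.877, 0.401 and 0 CPM on tamoxifen, with an adjusted p of 0.126.

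Of the genes that couple osteoblasts to osteoclasts, the ligand was called with tamoxifen in Dnm2 S619L/+ mice and the decoy was not, and the difference between them was not tested. Tnfsf11 (RANKL), which drives osteoclast formation, lay at 0, 0, 0 and 0.198 CPM on placebo and at 1.13, 2.99, 4.25 and 0.0617 CPM on tamoxifen in Dnm2 S619L/+ mice, where mouse 4 fell below the single placebo mouse with reads. It rose by 4.36 (SE 0.90, adjusted p = 0.011). In WT mice on tamoxifen it lay at 4.40, 5.04, 1.93 and 4.18 CPM, with 2 reads in all placebo mice. Tnfrsf11b (osteoprotegerin), the decoy receptor that blocks RANKL, lay at 0.180, 0.768, 0.724 and 0.356 CPM on placebo and at 0.215, 0.279, 0.361 and 0.154 CPM on tamoxifen, with an adjusted p of 0.257. In WT mice Tnfrsf11b lay at 0.264, 0.113, 0.158 and 0.112 CPM on placebo and at 0.623, 0.720, 0.188 and 0.621 CPM on tamoxifen, with 3 of the 4 tamoxifen mice above all placebo mice.

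Pth1r, the receptor of parathyroid hormone on osteoblasts, lay at 1.76, 1.30, 2.53 and 1.5 CPM on placebo and at 14.8, 31.1, 32.3 and 2.07 CPM on tamoxifen in Dnm2 S619L/+ mice and at 21.2, 33.3, 16.5 and 28.7 CPM in WT mice on tamoxifen. Mouse 4 was within the placebo range. Pth1r rose by 3.45 (SE 0.62, adjusted p = 0.00581). Cdh11, the cadherin of osteoblasts and other mesenchymal cells, lay at 5.34, 4.61, 2.81 and 7.88 CPM on placebo and at 98.9, 189, 206 and 8.06 CPM on tamoxifen, without overlap, since mouse 4 lay just above the highest placebo mouse. It rose by 4.58 (SE 0.71, adjusted p = 0.00294). Tmem119, a membrane protein that promotes osteoblast differentiation, lay at 15.1, 26.9, 26.3 and 4.91 CPM on tamoxifen and 8.07, 9.41, 4.48 and 6.73 CPM on placebo, and its log2 fold change of 1.34 (SE 0.47, adjusted p = 0.089) did not pass the threshold.

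In the WT mice the tamoxifen comparison is a description. All 4 tamoxifen mice lay above all 4 placebo mice in 24 of the 34 members, and in 20 of the 30 not named by the choice, beside 17.6% of all genes. Nothing is read from these counts, since the choice may have used this comparison. Whether tamoxifen acted differently in WT and Dnm2 S619L/+ mice was not tested. The comparison of WT mice on tamoxifen shares no mice with that of Dnm2 S619L/+ mice on tamoxifen, but all 16 mice share 1 fit and 1 estimate of spread.

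In Dnm2 S619L/+ against WT mice on placebo, 3 of the 34 members were called, 2 higher and 1 lower, 27 did not pass the threshold and 4 were not tested, where 21.9% of all genes were called. All 3 were among the 14 members that passed the filter on low counts on the placebo mice alone. The other 16 tested passed it only through the tamoxifen mice, which are not compared here, and 0 of them were called. Alpl fell, from 41.0, 28.4, 29.3 and 55.5 CPM in WT mice to 13.6, 8.83, 17.2 and 12.4 CPM in Dnm2 S619L/+ mice, without overlap. Its log2 fold change was -1.56 (SE 0.41, adjusted p = 0.015). The same placebo mice of Dnm2 S619L/+ are the reference of the tamoxifen comparison above, so that the fall of Alpl here and its rise there are not independent.

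Fam20c rose from 16.4, 9.14, 9.57 and 13.0 CPM in WT mice to 17.6, 19.4, 22.5 and 14.4 CPM in Dnm2 S619L/+ mice, with overlapping groups and a log2 fold change of 0.61 (SE 0.19, adjusted p = 0.0316). Tmem119 rose from 4.27, 1.61, 1.03 and 2.68 to 8.07, 9.41, 4.48 and 6.73 CPM, without overlap, by 1.47 (SE 0.48, adjusted p = 0.0407). Fam20c was no longer called without WT placebo mouse 2 or 3 or Dnm2 S619L/+ placebo mouse 2 or 3, with adjusted p from 0.0712 to 0.0875. Tmem119 was no longer called without WT placebo mouse 2, 3 or 4, Dnm2 S619L/+ placebo mouse 1, 2 or 4, WT tamoxifen mouse 4 or Dnm2 S619L/+ tamoxifen mouse 1, with adjusted p from 0.0502 to 0.107. Calls numbered from 1, without WT placebo mouse 2 or 3 or Dnm2 S619L/+ placebo mouse 2, to 6, without Dnm2 S619L/+ tamoxifen mouse 4, and 5 without WT placebo mouse 1. Over all genes 13.0% to 15.1% were called in the fits with 1 member called. The shares were 25.2% without Dnm2 S619L/+ tamoxifen mouse 4 and 17.3% without WT placebo mouse 1.

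Of the members defined as osteoblast genes, Sp7 (log2 fold change -0.71 (SE 0.92, adjusted p = 0.614)), Bglap (-0.32 (SE 0.45, adjusted p = 0.641)), Dmp1 (0.92 (SE 0.63, adjusted p = 0.31)) and Spp1 (0.91 (SE 0.83, adjusted p = 0.455)) did not pass the threshold in this comparison. Sp7, Bglap and Dmp1 passed the filter on low counts only through the tamoxifen mice. Means in Dnm2 S619L/+ and WT mice were 0.029 and 0.0715 CPM for Sp7 and 0.00989 and 0.0218 CPM for Bglap. At these levels a fall or a modest rise was not detectable. Cdh11 lay at 1.69, 0.849, 0.632 and 1.43 CPM in WT and at 5.34, 4.61, 2.81 and 7.88 CPM in Dnm2 S619L/+ mice without overlap, and its adjusted p was 0.0524. Bmp8a lay at 0.132, 0.481, 0.949 and 0.201 CPM in WT and at 0.0902, 0.0480, 0 and 0.0396 CPM in Dnm2 S619L/+ mice, also without overlap, with an adjusted p of 0.0693. With DESeq2, 7 members were called, with Vdr, Bmp8a, Tnfrsf11b and Cdh11 added to the same 3, where 26.5% of all genes were called. Markers of other cells differed as well, with 4 of 5 endothelial markers lower (summed levels of 333 to 666 CPM in WT and 146 to 428 CPM in Dnm2 S619L/+ mice) and 3 of 6 tendon markers higher (47.5 to 259 and 263 to 512 CPM), and their part in the levels of the members was not tested.

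In the Bin1 cohort 18 of the 34 members had enough reads to be tested. For Bin1 mck-/- against WT mice on placebo, edgeR called none of them, with 1 at an unadjusted p under 0.05, and DESeq2 called 0 as well, where 2.61% of all genes were called and 1.99% were called higher. Among those with no overlap between the groups, Tmem119 lay at 3.10, 2.19, 4.61 and 2.80 CPM in WT mice 5 to 8 and at 6.27, 9.27, 5.82 and 11.9 CPM in Bin1 mck-/- mice 1 to 4, with an adjusted p of 0.323. Sfrp4 lay at 1.43, 1.18, 0.960 and 0.783 CPM in WT and at 3.94, 3.70, 3.54 and 7.62 CPM in Bin1 mck-/- mice, with an adjusted p of 0.516. Enpp1 lay at 5.76, 5.71, 4.10 and 5.94 and 7.40, 7.31, 8.17 and 13.3 CPM, with an adjusted p of 0.164. All Bin1 mck-/- mice lay above all WT mice for these 3 genes and for Vdr and Cdh11, beside 9.09% of all genes, and 7.46% of all genes lay lower without overlap. Macrophage markers were higher as well in 4 of 6 (sums of 26.2 to 35.8 and 67.0 to 143 CPM) and adipocyte markers in 3 of the 5 tested (3.10 to 5.65 and 28.4 to 96.2 CPM), and their part was not tested.

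The count of calls depended on the mice fitted. Fitted with these 2 groups alone, edgeR called 3 members, Enpp1 (log2 fold change 0.74, SE 0.21, adjusted p = 0.0389), Sfrp4 (2.05, SE 0.30, adjusted p = 0.00179) and Tmem119 (1.37, SE 0.27, adjusted p = 0.0101). That fit called 10.1% of all genes. Without Bin1 mck-/- tamoxifen mouse 2 edgeR called 1, Sfrp4 (adjusted p = 0.0238), beside 5.03% of all genes. Alpl, lower in Dnm2 S619L/+ mice, lay at 46.5, 37.1, 43.6 and 38.0 CPM in WT and at 27.7, 33.5, 38.2 and 23.8 CPM in Bin1 mck-/- mice, and its log2 fold change of -0.42 (SE 0.48, adjusted p = 0.682) did not pass the threshold. Spp1 (1.05 (SE 1.86, adjusted p = 0.807)) and Dmp1 (1.92 (SE 0.94, adjusted p = 0.273)) did not pass it, and Sp7 and Bglap had 1 to 3 reads a group and were not tested.

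For tamoxifen in Bin1 mck-/- mice, edgeR called none of the 17 members tested among the 30, with 3 at an unadjusted p under 0.05 and 0 calls with DESeq2, where 3.13% of all genes were called and 1.52% were called higher. No tested member lay higher or lower without overlap, beside 4.69% and 5.11% of all genes. The group was split between mouse 2 and the rest. Spp1 lay at 0.741, 170.0, 0.349 and 0.110 CPM in mice 1 to 4 on tamoxifen and at 4.44, 0.483, 2.18 and 3.89 CPM on placebo, with a log2 fold change of 3.93 (SE 1.86, adjusted p = 0.269). Alpl lay at 23.5, 90.2, 18 and 19.7 CPM on tamoxifen and at 27.7, 33.5, 38.2 and 23.8 CPM on placebo (0.30 (SE 0.48, adjusted p = 0.764)), and Dmp1 at 0.305, 1.97, 0.155 and 0 and 0.592, 1.71, 0.222 and 0.559 CPM (-0.28 (SE 0.93, adjusted p = 0.899)). In mouse 2 the first 2 were the highest of the 12 mice of the cohort, and in the other 3 tamoxifen mice they were within or below the placebo range.

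Mouse 2 also held nearly all reads of the members that placebo mice lack. Ibsp lay at 0.0872, 186, 0 and 0 CPM in mice 1 to 4 on tamoxifen and had no read in those on placebo, and Sp7 lay at 0.261, 13.0, 0 and 0 CPM. Of the genes named by the choice, Tnn lay at 1.09, 171, 0 and 0 CPM, Mmp13 at 1.05, 291, 0.0388 and 0 CPM and Prss35 at 0.131, 31.3, 0.0776 and 0 CPM. Mouse 1 was the other mouse with some of them, at 1.09 CPM of Tnn and 1.05 CPM of Mmp13, while mice 3 and 4 had at most 0.0776 CPM of any of these 5 genes. Sp7 had 435 reads in the group, against 2 on placebo, a ratio of 267 (73.5 to 2214) that rests on mouse 2.

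Without mouse 2 the direction turned for some members. Then 4 members were called, all lower on tamoxifen, Spp1 (log2 fold change -2.63, adjusted p = 0.029), Sfrp4 (-2.32, adjusted p = 0.0176), Enpp1 (-1.08, adjusted p = 0.0307) and Alpl (-0.59, adjusted p = 0.0319). Calls over all genes also became more frequent in that fit, at 8.3% against 3.13% with all mice. Without mouse 1 only Col24a1 was called, higher on tamoxifen (1.26, adjusted p = 0.0196), beside 3.95% of all genes. All these values are from edgeR and compare 3 tamoxifen mice with 4 placebo mice, in fits that also held the 4 WT mice of the cohort.

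Markers of other cells were lower in Bin1 mck-/- mice on tamoxifen as well, here with all 4 mice. Of the 8 fibroblast markers 2 were called lower and 4 lay lower without overlap, with sums of 158 to 760 CPM on tamoxifen and 669 to 1037 CPM on placebo. Of the 5 adipocyte markers tested 1 was called lower and 3 lay lower without overlap, with sums of 3.14 to 23.2 and 28.4 to 96.2 CPM. Of the 6 macrophage markers edgeR called 0, with 4 at an unadjusted p under 0.05, and DESeq2 called 4, with sums of 30.2 to 73.8 and 67.0 to 143 CPM. Their part in the levels of the members was not tested.

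Other genes of bone formation, 59 in a further list, were read for the same comparisons. With tamoxifen in Dnm2 S619L/+ mice, 24 of the 53 tested rose and none fell, where 5.22% of all genes were called higher and 3.05% lower. In 10 of the 59 all tamoxifen mice lay above all placebo mice, beside 4.02% of all genes tested. When only the 2 groups were fitted edgeR called 0, with 30 at an unadjusted p under 0.05. DESeq2 with all groups called 28, beside 12.2% of all genes. The 6 with the smallest adjusted p were Cthrc1, a secreted protein of collagen-making cells (log2 fold change 5.50, SE 0.72, adjusted p = 0.00148), Dkk3, of the Dickkopf family (4.80, SE 0.68, 0.00197), Gja1, the gap junction protein connexin 43 (3.67, SE 0.59, 0.00339), Kremen1, a receptor of Dickkopf proteins (0.67, SE 0.11, 0.00339), Omd, the keratan sulphate proteoglycan osteomodulin of bone (3.66, SE 0.60, 0.00339), and Wnt16, a Wnt ligand (4.59, SE 0.76, 0.00359). Of these 6, Wnt16 passed the filter on low counts only through the tamoxifen mice, so its direction was partly fixed by it. Runx2 and Col1a1, named here after their values were seen because they head the osteoblast pathway and its product, rose by 3.06 (SE 0.59, adjusted p = 0.00807) and 2.77 (SE 0.56, adjusted p = 0.01). Runx2 lay at 2.12, 2.45, 1.36 and 3.28 CPM on placebo and at 15.4, 23.5, 38.4 and 1.70 CPM on tamoxifen, with mouse 4 again within the placebo range.

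In Dnm2 S619L/+ against WT mice on placebo, 4 of these 53 genes rose and 3 fell, or 13.2%, which is below the 21.9% of all genes called (12.1% higher and 9.81% lower). Sgms2, a sphingomyelin synthase whose mutation causes fragile bones, rose by 2.41 (SE 0.31, adjusted p = 0.000124), Mgp, an inhibitor of calcification, by 1.85 (SE 0.41, 0.00551), Notum, which inactivates Wnt ligands, by 1.89 (SE 0.43, 0.00599) and Msx1, a homeobox factor, by 1.15 (SE 0.34, 0.0241). Kremen1 fell by 0.39 (SE 0.11, adjusted p = 0.0205) and Bmp4 fell by 0.69 (SE 0.21, adjusted p = 0.027) on the log2 scale. In Bin1 mck-/- against WT mice on placebo, 2 of 51 (3.92%, beside 2.61% of all genes) were called, Sgms2 (1.64, SE 0.37, adjusted p = 0.0326) and Pdpn, podoplanin of early osteocytes and of other cells (1.14, SE 0.25, adjusted p = 0.0323). With tamoxifen in Bin1 mck-/- mice 1 of 51 (1.96%, beside 3.13% of all genes) was called, the Wnt co-receptor gene Lrp5, which fell by 0.49 (SE 0.13, adjusted p = 0.0477). With 1 mouse left out, the calls in these 3 comparisons ran from 3 (without WT placebo mouse 2) to 14 (without Dnm2 S619L/+ tamoxifen mouse 4), from 0 to 4 and from 0 to 10. Without Bin1 mck-/- tamoxifen mouse 2 the calls of the Bin1 cohort were 4 and 10, the latter with 8 lower, beside 5.03% and 8.3% of all genes. The 2 calls of Bin1 mck-/- against WT mice became 0 without Bin1 mck-/- placebo mouse 1, 2 or 4 or WT mouse 6, 7 or 8, 1 without WT mouse 5 and 4 without Bin1 mck-/- placebo mouse 3. Lrp5 stayed called in 2 of 12 such fits.

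Markers of other cells moved with the set in part. In Dnm2 S619L/+ mice on tamoxifen 7 of 12 osteoclast markers rose, and their sum lay at 351, 399, 851 and 125 CPM in mice 1 to 4, against 98.2 to 111 CPM on placebo. In WT mice on tamoxifen it was 377 to 1697 CPM and in Bin1 mck-/- mouse 2 it was 286 CPM, against 90.8 to 108 CPM in the other Bin1 mck-/- mice on tamoxifen. Of chondrocyte markers 3 of the 8 tested rose, with Acan at 6.99, 19.5, 25.8 and 0.278 CPM in Dnm2 S619L/+ mice on tamoxifen and at most 0.158 CPM on placebo, while Matn1 was at or near 0 in every group. The sum of the 12 ran from 9.11 to 135 CPM on tamoxifen and from 8.49 to 46.1 CPM on placebo. Acan, Col2a1, Col10a1 and Hapln1 passed the filter on low counts only through the tamoxifen mice. So did the osteoclast markers Atp6v0d2, Dcstamp and Oscar, and the direction of all these genes was partly fixed by the filter.

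Of the 6 tendon markers none was called by edgeR or DESeq2 (1 at an unadjusted p under 0.05), and their sum was 497, 813, 756 and 117 CPM on tamoxifen and 263 to 512 CPM on placebo. Of the 8 fibroblast markers 1 rose, with a sum of 614 to 1625 against 692 to 1077 CPM. No macrophage, adipocyte or endothelial marker was called by edgeR or DESeq2, with 0 at an unadjusted p under 0.05, and the sums were 61.1 to 122, 10.6 to 94.6 and 268 to 359 CPM on tamoxifen and 43.5 to 107, 13.2 to 225 and 146 to 428 CPM on placebo. Of the 10 muscle fiber and 7 erythroid markers edgeR called none, with 3 and 5 at an unadjusted p under 0.05, and DESeq2 called 1 of each. The sums were 106817 to 173877 and 635 to 2025 CPM on tamoxifen, and 124031 to 180143 and 350.3 to 866 CPM on placebo. Of 12 neutrophil and marrow markers only 2 had reads enough to be tested and neither was called by either tool, with 0 at an unadjusted p under 0.05. The sum of the 12 was 0.586 to 1.87 CPM on tamoxifen and 0.712 to 1.74 CPM on placebo, and Elane, Ly6g and Ctsg were at 0 on tamoxifen. The part of marrow and of the other cells in the levels of the members was not tested.

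In WT mice, whose tamoxifen comparison is a description, more of these lists lay higher on tamoxifen. All 4 tamoxifen mice lay above all 4 placebo mice in 9 of 12 osteoclast, 6 of 12 chondrocyte, 5 of 6 tendon, 4 of 6 macrophage and 3 of 8 fibroblast markers, beside 17.6% of all genes. The sums were 718 to 1662 CPM on tamoxifen and 47.5 to 259 CPM on placebo for tendon markers, and 86.5 to 189 and 36.3 to 60.2 CPM for macrophage markers. They were 64.1 to 143 and 6.59 to 38.3 CPM for chondrocyte markers, and 1292 to 1822 and 554 to 643 CPM for fibroblast markers. These 4 sums did not overlap between the groups, and their part in the levels of the members was not tested.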

How the data were processed

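RNA of TA muscle from 28 mice was read from strand-specific libraries of polyadenylated RNA. Per the labels, 300 ng of RNA with 2 min of fragmentation was used in the Dnm2 cohort and 350 ng with 8 min in the Bin1 cohort, with 12 PCR cycles in each, so cohorts were only compared within. The authors deposited unnormalized read counts for each Ensembl gene identifier. The submitters' processing notes name bcl2fastq 2.20.0.422, cutadapt 1.10, Bowtie 1.2.2, STAR 2.5.3, HTSeq 0.6.1p1 and mm39. The strand setting of the counting is not given in the sources used here. The 4 lines of the Bin1 table that name no gene held 22.0% to 30.8% of its counts (median 23.9%) and were left out.

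Genes were named with GENCODE M21, which held 52083 identifiers of each table. The members and all gene lists were chosen with earlier results of these data known. Counts were tested with edgeR 4.0.16 in R 4.3.3 (TMM, filterByExpr, robust glmQLFit, glmQLFTest, prior count 2), with all mice of a cohort in 1 fit, after the scripts were tested on simulated data. The filter kept 15439 genes in the Dnm2 cohort and 14841 in the Bin1 cohort, and 30 and 18 of the 34 members. All 34 members are named with their levels, and fold changes are given for called members and for Sp7, Bglap, Dmp1, Alpl and Spp1. Of other bone formation genes, up to 6 per comparison with the smallest adjusted p are given. A floor of 3 reads over a group stands for a count of 0, and counting intervals are exact 95% Poisson intervals of a ratio. Marker lists of muscle fibers, osteoclasts, chondrocytes, tendon, neutrophils and marrow, erythroid cells, fibroblasts, macrophages, adipocytes and endothelium were read beside the members.

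The alternatives were DESeq2 1.42.0, RLE normalization, no filter on low counts, a fit of just the mice being compared, a block for replicate number, each mouse left out, and, for summed CPM, scaling by total gene counts. Promoters were taken from RefSeq on GRCm38.p6, a build that differs from that of the counts, and matched by symbol, and no coordinate was converted.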

Additional observations from a re-analysis of the deposited data

Results flagged for a closer look

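Within groups of 4 mice, 24 of the 132 member levels checked had a highest or lowest mouse whose gap to the nearest other, as a share of the range of the group, was above Dixon's 95% critical value for 4 samples. A level was checked where the highest mouse of its group reached 1.0 CPM. Chance flags about 5% of groups taken without regard to their values. This share does not hold for levels that entered the check through 1 high mouse. The levels are also of genes that vary together, so the flags are not independent.

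Bin1 mck-/- mouse 2 on tamoxifen was the high mouse in 16 of the 24. The share was 0.98 for Sp7, 0.984 for Dlx5, 0.884 for Dlx6 and 0.843 for Vdr. For the matrix proteins it was 1.0 for Ibsp, 0.929 for Bglap2, 0.845 for Dmp1 and 0.996 for Spp1. It was 0.923 for Alpl, 0.878 for Fkbp10, 0.994 for Tnn, 0.996 for Mmp13 and 0.996 for Prss35, and 0.987 for Sfrp4, 0.938 for Pth1r and 0.98 for Cdh11. For Sp7, Dlx5, Dlx6, Vdr, Ibsp, Bglap2, Dmp1, Spp1 and Prss35 the next mouse lay at or under 0.741 CPM. Mouse 2 alone thus brought these levels into the check, and their flags were largely fixed by it.

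Bin1 mck-/- mouse 4 on placebo was the high mouse for Enpp1 (0.856), Sfrp4 (0.904) and Cdh11 (0.933). In WT mice of the Bin1 cohort, mouse 7 was low for Enpp1 (0.876) and high for Smpd3 (0.896), and mouse 6 was high for Wif1 (0.902). In the Dnm2 cohort, WT placebo mouse 4 was high for Wif1 (0.903), and Dnm2 S619L/+ placebo mouse 4 was high for Vdr (0.956). For Wif1 and Vdr the next mouse lay at or under 0.643 CPM, so the high mouse alone brought these levels into the check.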

How the results depend on the processing

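Of 570 refits of the members whose fold change is given with a test, 513 kept the direction and the side of the threshold, 50 lost the call and 7 turned. With DESeq2, the calls in Dnm2 S619L/+ against WT mice became 7, and with no filter 1, where 26.5% and 8.16% of all genes were called. With only the groups compared they became 1 for tamoxifen in Dnm2 S619L/+ mice and 3 for Bin1 mck-/- against WT mice, where fewer mice share the estimate of spread. Of all genes 0.21% and 10.1% were called in those fits. Leaving out 1 mouse gave 1 to 6 and 11 to 19 calls in the Dnm2 cohort, without and with tamoxifen, and 0 to 1 and 0 to 4 in the Bin1 cohort. Counting members with no overlap between groups, a rule added after the data were seen, gave 9 of the 26 tested under tamoxifen in Dnm2 S619L/+ mice. Of these 9, only Alpl, Sfrp4 and Cdh11 passed the filter on low counts on the placebo mice alone.

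For other bone formation genes, refitted after the data were seen, calls in the Dnm2 cohort ran from 3 to 14 without and from 19 to 30 with tamoxifen when 1 mouse was left out, and were 14 and 0 with only the groups compared. In the Bin1 cohort they ran from 0 to 4 and from 0 to 10, were 8 and 4 with DESeq2, and 11 and 0 with only the groups compared. For tamoxifen in Bin1 mck-/- mice they were 0 with RLE normalization and 0 with a replicate block. With only the groups compared 20.2% and 0.21% of all genes were called in the Dnm2 cohort, and 10.1% and 0.848% in the Bin1 cohort. DESeq2 called 8.05% and 8.27% of all genes in the Bin1 cohort.

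The direction turned under tamoxifen in Bin1 mck-/- mice. Dmp1 became 0.39, 0.01 and 0.10 without placebo mouse 2 and without tamoxifen mouse 3 or 4, and Spp1 and Alpl became -2.63 and -0.59 without tamoxifen mouse 2 and -1.15 and -0.05 with a replicate block. With 1 mouse left out the log2 fold changes ran from -1.95 to 0.39 for Dmp1, from -2.63 to 4.34 for Spp1 and from -0.59 to 0.53 for Alpl. Among members outside the 570, the range also crossed 0 there for Sfrp4 (-2.32 to 2.83), Cdh11 (-2.36 to 2.80), Fkbp10 (-0.88 to 0.70), Vdr (-1.18 to 0.95), Creb3l1, Wif1 and Tmem119. Replicate numbers did not pair the mice, with correlations of deviations from -0.253 to 0.224, and the block gave 2, 14 and 0 calls of members in Dnm2 S619L/+ against WT mice and under tamoxifen in Dnm2 S619L/+ and Bin1 mck-/- mice. Between Bin1 mck-/- and WT mice no paired analysis was possible because the WT mice of the Bin1 cohort are numbered 5 to 8 and Bin1 mck-/- mice 1 to 4. Scaling by total gene counts moved 1 of 28 sums of members by more than the spread of its group, that of Bin1 mck-/- placebo mouse 4, from 138 to 161 CPM. Causes were not tested.

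Depth limits the members that are low on placebo. In the Dnm2 cohort 16 of the 30 members that passed the filter on low counts would not have passed on the placebo mice alone, and in the Bin1 cohort 3 of 18. Dlx3, Mepe, Sost and Dkk1 passed in neither cohort.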

Other observations

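Reads of osteocalcin (Bglap and Bglap2 together), made by mature osteoblasts, were set against those of Ibsp in the 10 mice with at least 50 Ibsp reads. Per 1000 reads of Ibsp they were 8.71, 4.65, 17.5 and 14.1 in WT mice 1 to 4 on tamoxifen. In Dnm2 S619L/+ mice 1 to 4 on tamoxifen they were 58.8, 38.1, 26.2 and 205, each above those 4 WT mice, though mouse 4 rests on 4 reads of Bglap, 12 of Bglap2 and 78 of Ibsp. Bin1 mck-/- mouse 2 on tamoxifen had 14.3. WT mouse 1 of the Dnm2 cohort, the only placebo mouse with as many Ibsp reads, had 49.4, from 2 reads of Bglap, 2 of Bglap2 and 81 of Ibsp, and thus lay above all WT mice on tamoxifen. The ratio was chosen after the levels were seen and was not tested.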
